A study of Mus musculus with 6 samples.

Results

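The activins and their follistatin antagonists were followed through 6 single-cell RNA-Seq libraries of mouse lung fibroblasts (FBs) and of organoids grown with them. The members were the 6 genes Inhba, Inhbb, Fst, Fstl1, Fstl3 and Acvr2a, chosen by symbol, out of 20490 symbols found in all 6 count tables and 42625 found in any of them. Each condition had 1 library of cells pooled from 3 mice. The single-dose libraries held GFP+ lung cells of Pdgfra-GFP mice 14 days after oropharyngeal PBS (50 ul) or bleomycin, a drug that injures the lung and is followed by fibrosis. The bleomycin dose is given as 2 U/kg in the protocol and as 4 U/kg in the treatment entry of that sample. The repetitive libraries held GFP+ cells of PDGFRa-EGFP mice that received PBS or bleomycin in 3 weekly doses, of which the first and second held 1 U/kg bleomycin and the last 0.5 U/kg, and were collected 14 days after the last dose. The organoid libraries held 2-week cultures of tomato+ alveolar type 2 epithelial cells (AEC2s) from tamoxifen-treated SpcCreER donors with GFP+ FBs of donors that had received PBS (normal organoids) or 2 U/kg bleomycin (fibrogenic organoids). All FB donors carried the GFP reporter at Pdgfra, the controls included. The lung cells were sorted for GFP, so that FBs without GFP were not sought.

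Activins are dimers of the inhibin beta subunits, which Inhba and Inhbb encode, and belong to the TGF-β family. They bind a type II receptor, such as the one encoded by Acvr2a, which recruits a type I receptor that phosphorylates SMAD2 and SMAD3. Follistatin, the product of Fst, and the related protein encoded by Fstl3 bind activins outside the cell and keep them from their receptors, whereas Fstl1 encodes a secreted glycoprotein named for its follistatin domain that is not known as a strong activin antagonist.

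FBs were taken as barcodes with at least 3 of 6 FB markers (Col1a1, Col1a2, Col3a1, Col6a1, Pdgfra and Mfap4) and at most 1 marker of epithelial, endothelial or immune cells, and numbered 858 and 821 in the single-dose PBS and bleomycin libraries, 5328 and 5354 in the repetitive libraries and 2158 and 3284 in the normal and fibrogenic organoids. All 6 FB markers stood above 10 CPM (the gene's unique molecular identifiers, or UMIs, divided by all UMIs of the group and scaled to 1000000) in the FBs of every library, with Pdgfra itself at 289 to 591 CPM in the lung libraries and at 76.1 and 70.8 CPM in the organoids. Total depth ran from 7201081 to 238618743 UMIs per library, and the median FB held 6974.5 to 11664 UMIs in the lung libraries and 49439.5 and 45007 in the organoids. The repetitive bleomycin library stood apart, with 43.7% of its barcodes under 2000 UMIs, as did the fibrogenic organoid library with 33.5%, and barcodes under that depth were left out. Between 0 and 30 barcodes were shared by any pair of libraries. With 1 library per condition, conditions were not tested against each other, and the 95% intervals given in brackets cover counting error only. A gene was counted as higher or lower when its CPM plus 1 differed by at least 2-fold, among genes with at least 50 UMIs in the groups compared.

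In both lung experiments, 4 of the 6 members were past 2-fold higher in bleomycin FBs: the activin subunits Inhba and Inhbb, the antagonist Fst, and Fstl1. No member was past 2-fold lower. Of all genes, 7.84% of 10710 were past 2-fold higher and 3.73% lower after the single dose, and 6.71% of 15118 were higher and 1.89% lower after repetitive exposure. The median log2 ratio of the 6 members was 2.5 after the single dose and 2.13 after repetitive exposure, against 0.08 and 0.10 for all genes. Genes past 2-fold higher in both experiments were 5.04% of the 10026 tested in both.

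Inhba encodes the beta A subunit, 2 of which form activin A. Its gene lies on the plus strand of chromosome 13 (GRCm38, 16011851 to 16031621). Inhba stood at 2.51 CPM [1.41 to 4.14] in single-dose PBS FBs, from 15 UMIs, and at 40.7 CPM [36.9 to 44.7] in bleomycin FBs, from 427 UMIs. In the repetitive libraries it stood at 1.93 CPM [1.59 to 2.32] with PBS and 29.0 CPM [27.6 to 30.4] with bleomycin. In each experiment the bleomycin value lay well above the PBS value, with intervals that did not overlap. The ratio was 16.2 [9.70 to 29.2] after the single dose (log2 3.57) and 15.0 [12.4 to 18.3] after repetitive exposure (log2 3.36). Organoid FBs held 328 CPM (normal) and 299 CPM (fibrogenic) of Inhba.

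Inhbb encodes the beta B subunit and lies on the minus strand of chromosome 1 (119415465 to 119422248). It was nearly undetected in PBS FBs, with 1 UMI in the single-dose library (0.168 CPM) and 33 UMIs in the repetitive library (0.559 CPM [0.385 to 0.785]). It stood at 10.0 CPM [8.18 to 12.1] in single-dose bleomycin FBs and 12.3 CPM [11.4 to 13.2] in repetitive bleomycin FBs. The ratio was 59.7 after the single dose, with a wide interval [10.5 to 2379] because of the 1 PBS count, and 21.9 [15.5 to 32.1] after repetitive exposure. Organoid FBs held 7.73 CPM (normal) and 7.41 CPM (fibrogenic).

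**Figure D1:**
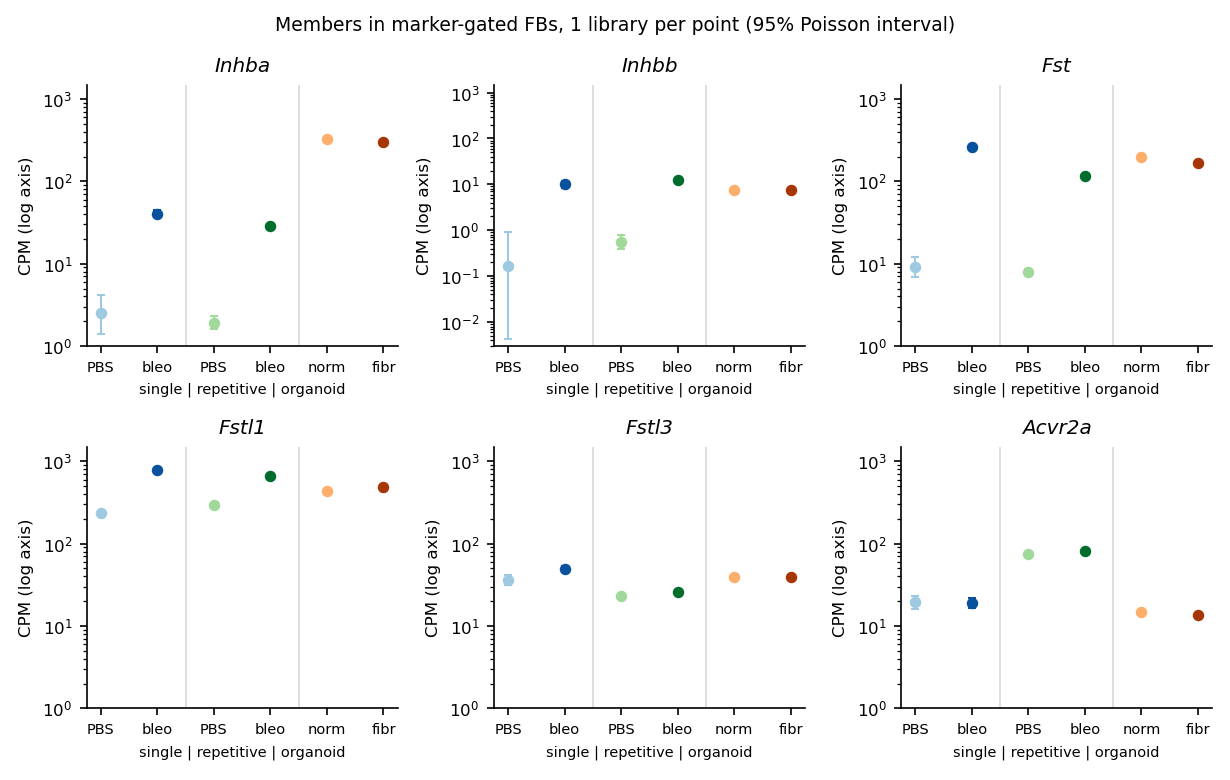
CPM (log axis) of each member in the marker-gated FBs of the 6 libraries, with 95% Poisson intervals; each point is 1 library and gray lines separate the 3 experiments. Inhba, Inhbb, Fst and Fstl1 sit higher in bleomycin (bleo) than in PBS FBs in both lung experiments, Fstl3 and Acvr2a do not differ by 2-fold, and normal (norm) and fibrogenic (fibr) organoid FBs lie close together for all 6 members.

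Fst, which lies on the minus strand of chromosome 13 (114452290 to 114458951), was the antagonist gene with the larger difference. It stood at 9.21 CPM [6.94 to 12.0] in single-dose PBS FBs and 263 CPM [253 to 273] in bleomycin FBs. In the repetitive libraries it stood at 7.95 CPM [7.24 to 8.70] with PBS and 117 CPM [114 to 120] with bleomycin. In each experiment Fst was thus low with PBS and high with bleomycin. The ratio was 28.6 [21.9 to 38.0] after the single dose (log2 4.69) and 14.7 [13.4 to 16.2] after repetitive exposure (log2 3.72). A few cells carried much of the PBS value: the 9 single-dose PBS FBs highest in Fst held 78.2% of its 55 UMIs. Without the 1% of FBs highest in Fst in each library, single-dose PBS FBs stood at 2.04 CPM and the log2 ratio was 6.0. Cells were removed by the value compared, so this ratio does not show a larger difference. The repetitive libraries moved less, to 2.76 CPM with PBS and 62.0 CPM with bleomycin, a log2 ratio of 4.07.

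The other antagonist gene, Fstl3, did not follow Fst. It stood at 36.4 CPM [31.7 to 41.5] with PBS and 49.5 CPM [45.3 to 54.0] with bleomycin after the single dose, and at 23.4 CPM [22.2 to 24.7] and 25.6 CPM [24.3 to 26.9] after repetitive exposure. The ratios were 1.36 [1.16 to 1.60] and 1.09, and neither was past 2-fold. Fstl1 had the most UMIs of the members in lung FBs. It stood at 232 CPM in PBS and 786 CPM in bleomycin FBs after the single dose, a ratio of 3.39 [3.20 to 3.59], and at 291 and 654 CPM after repetitive exposure, a ratio of 2.25.

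Acvr2a, a type II activin receptor gene, differed little between PBS and bleomycin FBs. It stood at 19.4 CPM [16.1 to 23.3] and 19.0 CPM [16.5 to 21.9] in the single-dose libraries, with a ratio of 0.98 [0.776 to 1.24], and at 75.6 CPM [73.4 to 77.8] and 82.1 CPM [79.8 to 84.5] in the repetitive libraries, with a ratio of 1.09 [1.04 to 1.13]. The single-dose tables had 30830 and 30828 gene rows and each of the others 32285, and levels are given side by side between experiments without being compared. In T cells of the repetitive libraries, Acvr2a was also detected, at 31.7 CPM (PBS) and 23.7 CPM (bleomycin). Inhba, Inhbb, Fst and Fstl3 had 0 UMIs in these 75 and 53 T cells, which allows up to 9.75 and 12.5 CPM. Macrophage markers moved with treatment in the FBs, from a summed 47.9 to 91.4 CPM over 6 markers after the single dose and from 22.1 to 72.0 CPM after repetitive exposure, with Lyz2 alone at 55.7 of the 72.0 CPM. In the 82 macrophage or monocyte cells of the repetitive bleomycin library, Inhba stood at 8.86 CPM [4.25 to 16.3] (10 UMIs), Fst at 0.886 CPM (1 UMI) and Inhbb at 0 UMIs. Over all FBs of that library they stood at 29.0, 117 and 12.3 CPM, but Inhba in its LipoFB-like cells (defined below) stood at 6.80 CPM [5.89 to 7.80]. The single-dose bleomycin library held 4 macrophage or monocyte cells. The part of macrophage RNA in the FB values was not tested.

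The 250 bases before the start of 3 member genes are shown because Inhba and Inhbb encode the activin subunits that were higher in bleomycin FBs and Acvr2a a receptor for them that did not pass 2-fold. The sequences are from RefSeq on GRCm38.p6, at chr13:16011601-16011850 (plus strand) for Inhba, chr1:119422249-119422498 (minus strand) for Inhbb and chr2:48813859-48814108 (plus strand) for Acvr2a, and capitals mark the GC box GGGCGG, or CCGCCC where it is on the other strand.
Inhba: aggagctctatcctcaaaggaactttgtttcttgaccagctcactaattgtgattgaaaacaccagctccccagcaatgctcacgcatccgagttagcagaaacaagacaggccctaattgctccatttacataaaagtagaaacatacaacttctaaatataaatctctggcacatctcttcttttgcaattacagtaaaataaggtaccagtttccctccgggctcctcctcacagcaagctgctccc
Inhbb: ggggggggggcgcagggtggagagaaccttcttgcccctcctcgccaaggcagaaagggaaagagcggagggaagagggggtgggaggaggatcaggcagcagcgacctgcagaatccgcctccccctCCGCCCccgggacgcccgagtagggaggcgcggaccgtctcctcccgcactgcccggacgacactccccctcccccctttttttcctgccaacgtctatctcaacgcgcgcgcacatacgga
Acvr2a: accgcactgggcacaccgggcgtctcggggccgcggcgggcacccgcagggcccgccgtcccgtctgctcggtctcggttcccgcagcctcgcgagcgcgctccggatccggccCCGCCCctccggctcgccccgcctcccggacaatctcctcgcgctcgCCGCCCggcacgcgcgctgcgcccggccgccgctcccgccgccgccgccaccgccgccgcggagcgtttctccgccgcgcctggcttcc

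The activin subunit genes that were higher together thus had unlike upstream sequences. The Inhba stretch was 43.2% G and C, below the median of 52.4% over 32851 RefSeq promoters of the same length, and held no GC box. The Inhbb stretch was 68.0% G and C with 1 GC box, 122 bases before the start, and that of Acvr2a was 82.0% G and C, above 99.3% of promoters, with 2 GC boxes at 136 and 89 bases before the start. Fstl1 (68.0%) and Fstl3 (71.2%) held 2 and 4 GC boxes. A GC box was present in 32.7% of all promoters. Searched on both strands, the AP-1 site TGANTCA (in 6.75% of promoters), the cAMP response element TGACGTCA (1.55%), the TEAD site GGAATG (12.6%) and the SMAD palindrome GTCTAGAC (0.167%) had no match in these windows of the 5 of 6 members found in the RefSeq table, which were all but Fst.

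FBs were next divided by marker genes. No member was among the markers. LipoFB-like cells (Tcf21, Npnt, Ces1d, Inmt, Plin2, Col13a1, Wnt2 and Limch1) made up 82.2% and 82.7% of PBS FBs and 44.7% and 46.6% of bleomycin FBs. MatrixFB-like cells (Col14a1, Dcn, Ly6a, Pi16, Serpinf1 and Cd34) made up 14.0% and 14.6% with PBS and 22.4% and 34.3% with bleomycin. MyoFB-like cells (Cthrc1, Postn, Spp1, Tagln, Grem1, Adam12 and Acta2) numbered 51 and 85 in the bleomycin libraries, and injury FB-like cells (Sfrp1, Saa3, Hp and Lcn2) 106 and 249. Cells that reached no subset numbered 58 and 407. A higher value over all FBs can come from more cells of a subset or from more RNA per cell, so the members are given for each subset.

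In bleomycin lungs, Inhba was concentrated in MyoFB-like cells among subsets of at least 20 cells. It stood there at 197 CPM [172 to 225] after the single dose and 395 CPM [366 to 426] after repetitive exposure. LipoFB-like cells of the same libraries held 7.11 CPM [4.86 to 10.0] and 6.80 CPM [5.89 to 7.80]. The MyoFB-like level was 27.8 times [19.1 to 41.6] and 58.1 times [49.6 to 68.3] the LipoFB-like level. MyoFB-like cells were 6.21% and 1.59% of the bleomycin FBs, held 10.5% and 3.05% of all their UMIs, and held 51.1% and 41.5% of the Inhba UMIs. Within them the 10% of cells highest in Inhba held 61.5% and 78.5% of its UMIs, so that these levels rest on few cells. FBs that reached no subset held a further 20.1% and 24.9%, at 94.3 and 90.9 CPM. Injury FB-like cells were low, at 8.58 CPM [4.57 to 14.7] and 13.7 CPM [9.67 to 18.8]. Smooth muscle-like cells, whose markers also include Acta2, stood at 77.8 CPM [46.1 to 123] in 35 cells of the repetitive bleomycin library. Groups under 20 cells held Inhba too. They were smooth muscle-like cells at 291 CPM (8 single-dose cells) and pericyte-like cells at 195 CPM (6 repetitive cells). Cycling FBs of any subset stood at 168 and 378 CPM (13 and 18 cells).

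Inhba was also measured in the same subset across treatments. In LipoFB-like cells it was 0.810 CPM [0.579 to 1.10] with repetitive PBS and 6.80 CPM with bleomycin, a ratio of 8.39 [5.95 to 12.1]. After the single dose the corresponding values were 1.02 and 7.11 CPM, from 5 and 32 UMIs, too few to be counted against the limit. In MatrixFB-like cells Inhba did not pass 2-fold, at 7.48 CPM [5.71 to 9.63] and 12.9 CPM [11.2 to 14.9] in the repetitive libraries. It stood at 8.27 and 9.79 CPM in the single-dose libraries, from 7 and 17 UMIs. With PBS, MatrixFB-like cells thus held more Inhba than LipoFB-like cells, 9.24 times as much [6.09 to 14.1] in the repetitive library.

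**Figure D2:**
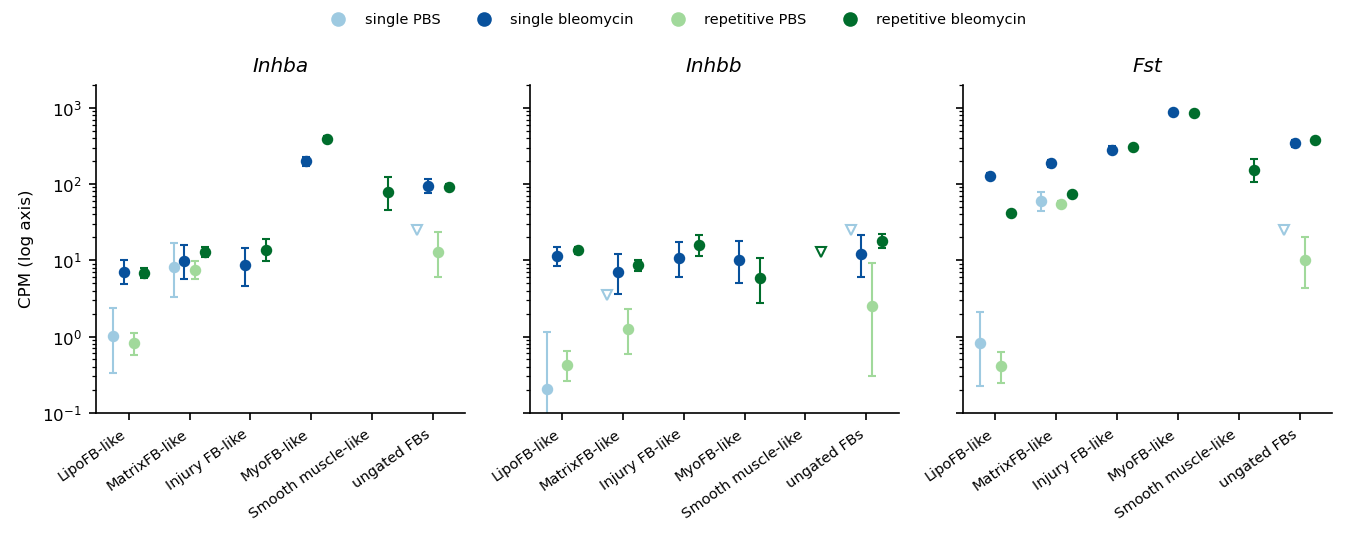
CPM (log axis) of Inhba, Inhbb and Fst in marker-gated FB subsets of the 4 lung libraries, for groups of at least 20 cells, with 95% Poisson intervals. Open triangles mark groups with 0 UMIs, drawn at the level that 3 counts would give. Inhba and Fst are highest in MyoFB-like cells of the bleomycin libraries, and Inhbb is spread over the subsets.

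In PBS lungs Fst stood higher in MatrixFB-like than in LipoFB-like cells, as Inhba and Fstl1 also did. MatrixFB-like cells held 60.3 CPM [44.9 to 79.3] and 54.4 CPM [49.4 to 59.7] in the single-dose and repetitive PBS libraries, whereas LipoFB-like cells held 0.815 CPM (4 UMIs) and 0.405 CPM (20 UMIs). MatrixFB-like cells were 14.0% and 14.6% of PBS FBs, with 14.2% and 13.6% of their UMIs, and held 92.7% and 93.0% of the Fst UMIs. The same cells held 46.7% and 52.6% of the Inhba UMIs, from 7 and 60 UMIs. In bleomycin lungs the LipoFB-like cells stood at 128 CPM [117 to 138] after the single dose and 41.5 CPM [39.2 to 43.8] after repetitive exposure, 102 times [66.0 to 168] the PBS level in the repetitive libraries and 156 times [60.8 to 576] in the single-dose libraries. MatrixFB-like cells stood at 186 CPM [166 to 207], a ratio of 3.09 [2.29 to 4.23] over PBS, and at 73.6 CPM [69.4 to 78.1], a ratio of 1.35 [1.21 to 1.52] that was not past 2-fold. The LipoFB-like cells of PBS and bleomycin lungs lay in different clusters when cells were clustered without the members, the pathway genes and mitochondrial genes: clusters 2, 3, 4 and 6 held 97.6% of them with single-dose PBS and 1.63% with bleomycin, where clusters 12, 13 and 14 held 97.8%. In the repetitive libraries clusters 3, 4, 8 and 9 held 98.1% with PBS and 6.5% with bleomycin, where clusters 0, 2 and 18 held 83.9%. MatrixFB-like cells shared more clusters: cluster 0 held 55.0% of them with single-dose PBS and 1.09% with bleomycin and cluster 1 held 28.3% and 73.9%, and in the repetitive libraries cluster 5 held 59.0% and 49.2% and cluster 1 held 1.29% and 27.3%. The ratios therefore compare cells that share subset markers and not cells of 1 cluster.

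Among lung FB groups of at least 20 cells, the highest Fst levels, as for Inhba, were in MyoFB-like cells, at 889 CPM [834 to 946] and 845 CPM [802 to 890]. Of groups under 20 cells, the 6 pericyte-like cells of the repetitive bleomycin library stood at 1050 CPM [873 to 1252]. Smooth muscle-like cells stood at 454 CPM (8 single-dose cells). Cycling FBs of the bleomycin libraries stood at 253 and 793 CPM (13 and 18 cells). FBs that reached no subset held 343 CPM [306 to 383] and 380.5 CPM [363 to 399] of Fst, and 11.3% and 25.8% of its UMIs. Fst stood in injury FB-like cells at 282 CPM [256 to 310] and 304 CPM [284 to 325]. This was 2.21 times [1.95 to 2.51] and 7.32 times [6.70 to 8.0] the LipoFB-like level. All FBs of both bleomycin libraries stood at 263 and 117 CPM. Injury FB-like cells held 15.5% and 12.7% of the Fst UMIs with 14.4% and 4.89% of all UMIs. Their share of Fst was thus near their share of all UMIs after the single dose and above it after repetitive exposure. Of the Inhba UMIs they held 3.04% and 2.30%. MyoFB-like cells held 35.5% and 22.0% of the Fst UMIs of bleomycin FBs, a smaller share than of Inhba. Of the 85 MyoFB-like cells of the repetitive library, 87.1% had at least 1 Fst UMI and 58.8% at least 1 Inhba UMI, at a median of 16420 UMIs per cell. After thinning every cell to 2000 UMIs, the expected shares were 57.2% for Fst and 23.7% for Inhba, against 6.02% and 1.23% in LipoFB-like cells (13.8% and 5.66% before thinning, at a median of 10995 UMIs). No T cell of that library had a UMI of either gene, 0 of 53 cells at a median of 4562 UMIs. This allows up to 6.72% of such cells to have a UMI and sets no limit on cells that express the gene.

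Inhbb did not share the subset pattern of Inhba. In the bleomycin libraries it stood at 11.3 CPM [8.43 to 14.9] and 13.4 CPM [12.1 to 14.8] in LipoFB-like cells, 6.91 CPM [3.57 to 12.1] and 8.57 CPM [7.16 to 10.2] in MatrixFB-like cells, and 9.96 CPM [4.97 to 17.8] and 5.78 CPM [2.77 to 10.6] in MyoFB-like cells. The single-dose intervals overlapped, and in the repetitive library the MyoFB-like level was 0.430 times [0.205 to 0.80] that of LipoFB-like cells, from 10 and 399 UMIs. LipoFB-like cells held 57.2% of the Inhbb UMIs of repetitive bleomycin FBs, close to their 52.3% of all UMIs, beside 12.2% of the Inhba UMIs. Compared with PBS, Inhbb in the repetitive libraries was 31.6 times [20.4 to 51.6] higher in LipoFB-like cells and 6.87 times [3.62 to 14.7] higher in MatrixFB-like cells.

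Across subsets, Fstl1 was high in MatrixFB-like cells with PBS, at 515 and 705 CPM, and lower in LipoFB-like cells, at 182 and 220 CPM. With bleomycin, LipoFB-like cells stood at 687 and 578 CPM, which narrowed the gap to MatrixFB-like cells at 1043 and 748 CPM, and MyoFB-like cells stood at 1041 and 1002 CPM. Fstl3 in MyoFB-like cells stood at 51.6 CPM [39.1 to 66.9] and 53.1 CPM [42.8 to 65.2]. This was 2.32 times [1.85 to 2.89] the LipoFB-like level in the repetitive library, but the ratio was 0.972 [0.715 to 1.30] in the single-dose library. Acvr2a was lower in MyoFB-like than in LipoFB-like cells in both libraries without passing 2-fold, at 0.525 times [0.270 to 0.938] and 0.546 times [0.439 to 0.671].

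In MyoFB-like over LipoFB-like cells, 2 members (Inhba and Fst) were thus past 2-fold higher in the single-dose library, where 4.3% of 8272 genes were, and 3 members (with Fstl3) in the repetitive library, where 6.61% of 12534 genes were. In the latter, Inhbb alone was past 2-fold lower, beside 11.3% of genes. In LipoFB-like cells with bleomycin over PBS, 3 of 5 members tested were past 2-fold higher after the single dose and 4 of 6 after repetitive exposure, beside 5.79% and 6.09% of all genes. In MatrixFB-like cells it was 2 of 3 tested and 1 of 6, beside 4.27% and 3.02%. Under 10 other settings of the processing, the repetitive call of Inhbb passed 2-fold in 7 (log2 −1.15 to −0.12), that of Fstl3 in 8 (0.68 to 1.24) and Acvr2a in 1, and those of Inhbb and Fstl3 were lost, among others, when subsets were taken from clusters instead of marker gates.

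**Figure D3:**
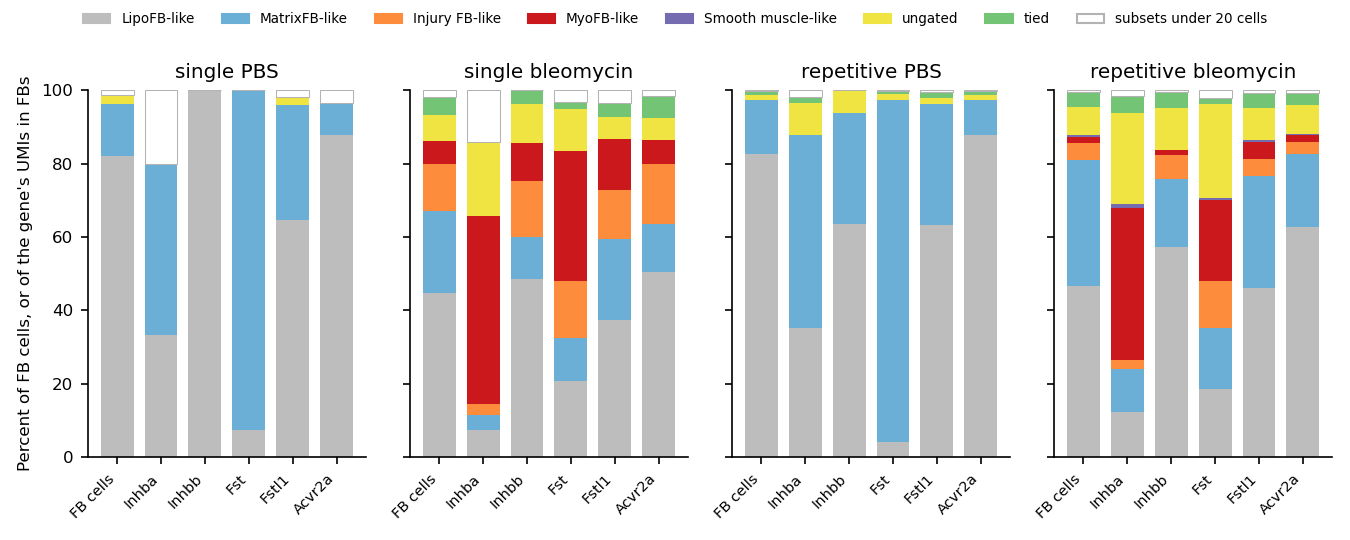
Percent of FB cells in each marker-gated subset (first bar of each panel) and percent of the UMIs of Inhba, Inhbb, Fst, Fstl1 and Acvr2a found in that subset (other bars), for the 4 lung libraries. Fstl3 is not drawn. White marks groups under 20 cells, and also the 23 duct or peribronchial FB-like cells of the repetitive bleomycin library. Ungated cells reached no subset and tied cells reached several equally. In bleomycin FBs, MyoFB-like cells take 51.1% and 41.5% of Inhba UMIs with 6.21% and 1.59% of cells and 10.5% and 3.05% of all UMIs, and in PBS FBs MatrixFB-like cells take 92.7% and 93.0% of Fst UMIs.

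Few cells carried most Inhba UMIs. In single-dose bleomycin FBs, 99 of 821 cells had an Inhba UMI, and the highest 9 cells held 56.7% of all Inhba UMIs, with up to 53 UMIs in 1 cell. In repetitive bleomycin FBs, 464 of 5354 cells had a UMI, and the highest 54 cells held 67.0%, with up to 220 UMIs in 1 cell. For Fst the same numbers of cells held 28.7% and 48.4%, and for Fstl1, which was found in most FBs, 6.08% and 7.56%. Inhba was therefore the most unevenly spread of these 3 genes among bleomycin FBs. Without the highest 1% of FBs in each library, Inhba stood at 18.2 CPM with bleomycin and 0.680 CPM with PBS after the single dose (log2 ratio 3.52), and at 9.87 and 0.566 CPM after repetitive exposure (log2 ratio 2.80). Cells were removed here by the value compared. With single-dose PBS the 9 cells removed held 73.3% of the 15 Inhba UMIs, so that this ratio rests on very few UMIs.

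Cells with an Inhba UMI were compared with the other cells of their subset for Fst. In repetitive bleomycin LipoFB-like cells, Fst stood at 177 CPM in the 141 cells with Inhba and 29.4 CPM in the 2352 cells without. In the single-dose library these values were 545 CPM in 21 cells and 97.6 CPM in 346 cells. In MatrixFB-like cells no such gap was seen, with 82.9 against 72.5 CPM in the repetitive library and 78.2 CPM in 15 cells against 197 CPM in 169 cells in the single-dose library. In MyoFB-like cells the values were 1021 CPM in 32 cells against 416 CPM in 19 cells after the single dose, but 854 against 817 CPM in 50 and 35 cells after repetitive exposure. In ungated FBs they were 602 against 216 CPM and 472 against 326 CPM. Cells with Inhba were deeper in these groups, with medians of 15817 against 10661 UMIs for the repetitive LipoFB-like cells, 12207 against 5462 UMIs for the MatrixFB-like cells and 22364.5 against 7244 UMIs for the MyoFB-like cells, and the part of depth in these values was not tested.

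The number of Fst UMIs per Inhba UMI compares the antagonist with the ligand subunit within a library. The 2 genes may be captured with unequal efficiency, so the ratio is read between groups and not against 1. Over all FBs it was 3.67 [2.04 to 6.99] with PBS and 6.47 [5.84 to 7.18] with bleomycin after the single dose, and 4.11 [3.35 to 5.09] and 4.03 [3.82 to 4.26] in the repetitive libraries. The intervals of PBS and bleomycin overlapped in each experiment, although both genes were past 2-fold higher with bleomycin. In LipoFB-like cells it was 0.500 [0.277 to 0.876] with repetitive PBS and 6.10 [5.25 to 7.11] with bleomycin, and 0.80 [0.159 to 3.72] and 17.9 [12.6 to 26.5] in the single-dose libraries. In MatrixFB-like cells it was 7.27 [5.54 to 9.68] and 5.70 [4.89 to 6.67] in the repetitive libraries and 7.29 [3.29 to 19.0] and 19.0 [11.7 to 33.0] in the single-dose libraries, with overlapping intervals in both. Overlap of such intervals is not a test of a difference, and none was made. In the bleomycin libraries, MyoFB-like cells had a low ratio of 4.5 [3.89 to 5.24] and 2.14 [1.95 to 2.35], and injury FB-like cells a high ratio of 32.9 [19.0 to 62.3] and 22.2 [16.0 to 31.6]. Low ratios were not particular to MyoFB-like cells. Ungated FBs stood at 3.64 [2.86 to 4.68] and 4.19 [3.76 to 4.67]. In the repetitive bleomycin library smooth muscle-like cells stood at 1.94 [1.07 to 3.65] and tied FBs at 1.33 [0.977 to 1.81]. In organoid FBs it was 0.603 [0.593 to 0.613] (normal) and 0.563 [0.555 to 0.572] (fibrogenic).

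**Figure D4:**
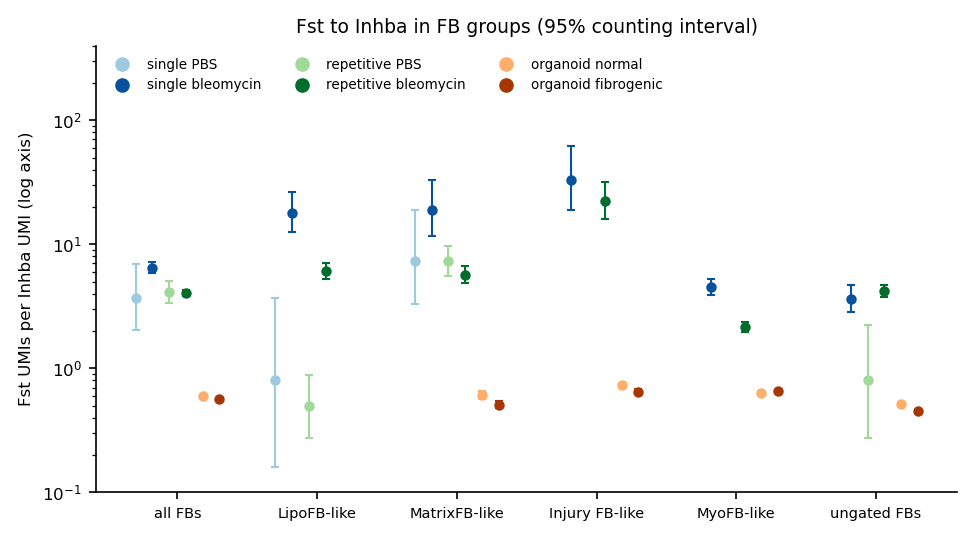
Fst UMIs per Inhba UMI (log axis) with 95% counting intervals in all FBs and in LipoFB-like, MatrixFB-like, injury FB-like, MyoFB-like and ungated FBs, for groups of at least 20 cells. Of the groups drawn, injury FB-like cells of the bleomycin libraries are highest, and the organoid groups lie between 0.452 and 0.731. Tied FBs, at 52.0 [8.93 to 2093] in the single-dose bleomycin library from 1 Inhba UMI and at 1.33 [0.977 to 1.81] in the repetitive bleomycin library, are not drawn. Smooth muscle-like cells of the repetitive bleomycin library (1.94) and smooth muscle-like (0.782) and cycling FBs (1.11) of normal organoids are not drawn either.

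Other genes of activin signaling were followed as a list of 26. In bleomycin over PBS FBs, 1 of the 15 tested after the single dose was past 2-fold higher and 1 lower, beside 7.84% and 3.73% of all genes. After repetitive exposure 3 of 19 were past 2-fold higher and 0 lower, beside 6.71% and 1.89% of all genes. Their median log2 ratio was 0.28 in both experiments, against 0.08 and 0.10 for all genes. Gdf15, a distant TGF-β family member made under cell stress, was past 2-fold higher in both, from 1.84 to 7.43 CPM and from 7.25 to 15.9 CPM. Pmepa1, a target gene and feedback inhibitor of the SMAD2 and SMAD3 branch, stood at 342 and 660 CPM in the single-dose libraries (log2 0.94) and at 445 and 1007 CPM in the repetitive libraries (log2 1.18). The type I receptor genes Acvr1 (log2 0.77 and 0.93) and Acvr1b (0.75 and 0.57) did not pass 2-fold. Acvr2b, the other activin type II receptor gene, was low throughout and stood at 6.87 and 2.57 CPM in the single-dose libraries (log2 −1.14) and 6.86 and 4.27 CPM in the repetitive libraries (−0.58). The co-receptor gene Tgfbr3, which aids the antagonism of activin by inhibin, had log2 ratios of −0.83 and −0.79, and Bambi, a pseudoreceptor gene, −0.92 and −0.81. The feedback genes Smad7 (0.15 and −0.54) and Skil (0.64 and −0.32) had ratios of opposite sign in the 2 experiments. The inhibin alpha gene Inha stood at no more than 3.14 CPM in lung FBs.

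In organoids the FBs of PBS and bleomycin donors differed little in the members. None of the 6 was past 2-fold in fibrogenic over normal organoid FBs, where 1.07% of 16129 genes were past it in either direction. Inhba stood at 328 CPM [325 to 332] in normal and 299 CPM [296 to 301] in fibrogenic organoids (log2 −0.14), and Fst at 198 CPM [195 to 201] and 168 CPM [166 to 170] (log2 −0.23). Fstl1 stood at 441 and 481 CPM, Fstl3 at 39.0 and 39.5 CPM, and Acvr2a at 14.9 and 13.4 CPM. Inhba was broadly detected in these cells, in 85.0% of normal and 70.1% of fibrogenic organoid FBs before thinning. The FBs without an Inhba UMI were shallower than those with one. Their medians were 24020.5 against 52340 UMIs in normal and 3852 against 63698 UMIs in fibrogenic organoids. After thinning to 2000 UMIs, the shares with Inhba were 32.5% and 27.8%. The thinned values were 3.27% and 2.68% in single-dose and repetitive bleomycin lung FBs. The highest 1% of organoid FBs held 17.4% and 21.5% of Inhba UMIs. MyoFB-like organoid FBs stood at 409 and 294 CPM and ungated organoid FBs at 314 and 335 CPM. MatrixFB-like organoid FBs were lower, at 190 and 155 CPM, injury FB-like FBs stood at 269 and 276 CPM, and smooth muscle-like FBs were higher, at 500 and 437 CPM in 42 and 97 cells. The organoid and lung libraries differ in culture, depth and cell source at the same time, which cannot be told apart, so their values are set side by side without a comparison.

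Organoids also held epithelial cells, 1846 in the normal and 1646 in the fibrogenic library. AEC2-like cells numbered 1347 and 1046, AEC1-like cells (alveolar type 1 markers) 92 and 89, and PATS-like cells 263 and 379, the last gated by Cldn4, Krt19, Sfn, Krt8, Lgals3 and Cdkn1a, markers of a transitional state between the former types. As a measure of FB RNA in these cells, the 6 FB markers stood in the epithelium at a median of 0.843% (normal) and 1.21% (fibrogenic) of their level in organoid FBs, and in PATS-like cells at 0.765% and 1.36%. Col6a1 was the highest of them, at 27.6% in the epithelium of the normal library. The epithelial gate allowed at most 2 of these markers, which lowers their shares. Another 6 FB genes that the gate did not use (Col5a1, Col6a2, Fbn1, Lum, Mmp2 and Sparc, chosen with the data known) stood at a median of 1.10% and 2.06% in the epithelium and 0.948% and 2.91% in PATS-like cells, where Sparc was the highest, at 24.1% and 20.4%. The shares of Col6a1 and Sparc were uneven over the epithelial subsets. Col6a1 stood at 31.4% and 22.0% in AEC2-like but 3.52% and 4.27% in AEC1-like cells. Sparc stood at 7.62% and 7.77% in AEC2-like but 43.2% and 45.9% in AEC1-like cells. The part of FB RNA in the values of Col6a1 and Sparc was not tested.

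Taken over all epithelium, Inhbb and, by less, Acvr2a stood higher than in FBs. Inhbb stood at 38.7 and 37.6 CPM in AEC2-like cells of the normal and fibrogenic organoids, against 7.73 and 7.41 CPM in FBs. In PATS-like cells it stood at 26.2 and 17.1 CPM, and in AEC1-like cells at 7.38 CPM (19 UMIs) and 4.43 CPM (11 UMIs). AEC1-like cells were thus 5.24-fold and 8.50-fold lower than AEC2-like cells. Over all epithelium Inhbb was 4.59-fold and 4.26-fold higher than in FBs.

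Inhba, by contrast, stood at 0.767% and 0.793% of the FB level in AEC2-like cells, no higher than the medians of FB genes outside the gate (1.09% and 1.71% there). PATS-like cells held 39.8 and 40.6 CPM, 12.1% [11.0 to 13.3] and 13.6% [12.5 to 14.8] of the FB level, and AEC2-like cells 2.52 and 2.37 CPM. The PATS-like share was above all FB genes given except Sparc, and the part of FB RNA in it was not tested. The ratio of PATS-like to AEC2-like cells was 15.8 [13.1 to 19.1] in normal and 17.2 [13.8 to 21.6] in fibrogenic organoids. Fstl3 showed a similar pattern, with 74.1 and 62.8 CPM in PATS-like cells against 4.14 and 3.55 CPM in AEC2-like cells, ratios of 17.9 [15.5 to 20.7] and 17.7 [14.8 to 21.3]. Fstl3 in PATS-like cells even exceeded the FB level, at 190% and 159% of it, and AEC1-like cells were intermediate at 25.2 and 28.2 CPM. Fst was 6.39 times [4.99 to 8.17] and 8.15 times [5.68 to 11.9] higher in PATS-like than in AEC2-like cells, though low, at 13.4 and 8.62 CPM. These were 6.76% [5.69 to 7.98] and 5.13% [4.23 to 6.16] of the FB level, below Col6a1 (9.73% and 11.2%) and Sparc in both libraries and Col6a2 (5.75%) in the fibrogenic library and above the other FB genes given, and the part of FB RNA in them was not tested.

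Inhba, Fst and Fstl3 were thus past 2-fold higher in PATS-like over AEC2-like cells in both organoid libraries, where 14.1% and 13.1% of all genes were, with a median log2 ratio of all genes of 0.19 and 0.17. Inhbb passed 2-fold lower in the fibrogenic library alone, beside 11% of genes. Fstl1 stayed at 1.03% and 1.20% of the FB level over all epithelium, below the medians of the FB genes outside the gate. Acvr2a was found in all these groups, at 25.4 and 21.6 CPM in AEC2-like cells and 14.9 and 13.4 CPM in FBs, and over all epithelium it stood at 160% [150 to 171] and 146% [136 to 157] of the FB level. PATS-like cells held Acvr2a at 118% [101 to 137] and 98.9% [84.4 to 115] of that level, so not above it in the fibrogenic library. Of the pathway list, 6 genes in the normal and 4 in the fibrogenic library, of 18 and 17 tested, were past 2-fold higher in PATS-like over AEC2-like cells and 2 in each were lower, and Smad7, Pmepa1 and Furin, which encodes a protease that cleaves activin precursors, were among them in both. Of all genes, 9.62% and 11% were past 2-fold lower in PATS-like over AEC2-like cells. Between organoids, no member was past 2-fold in the epithelium as a whole, where 0.304% of 14796 genes were, and the PATS-like cells held 1.02 times [0.898 to 1.16] as much Inhba in fibrogenic as in normal organoids.

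**Figure D5:**
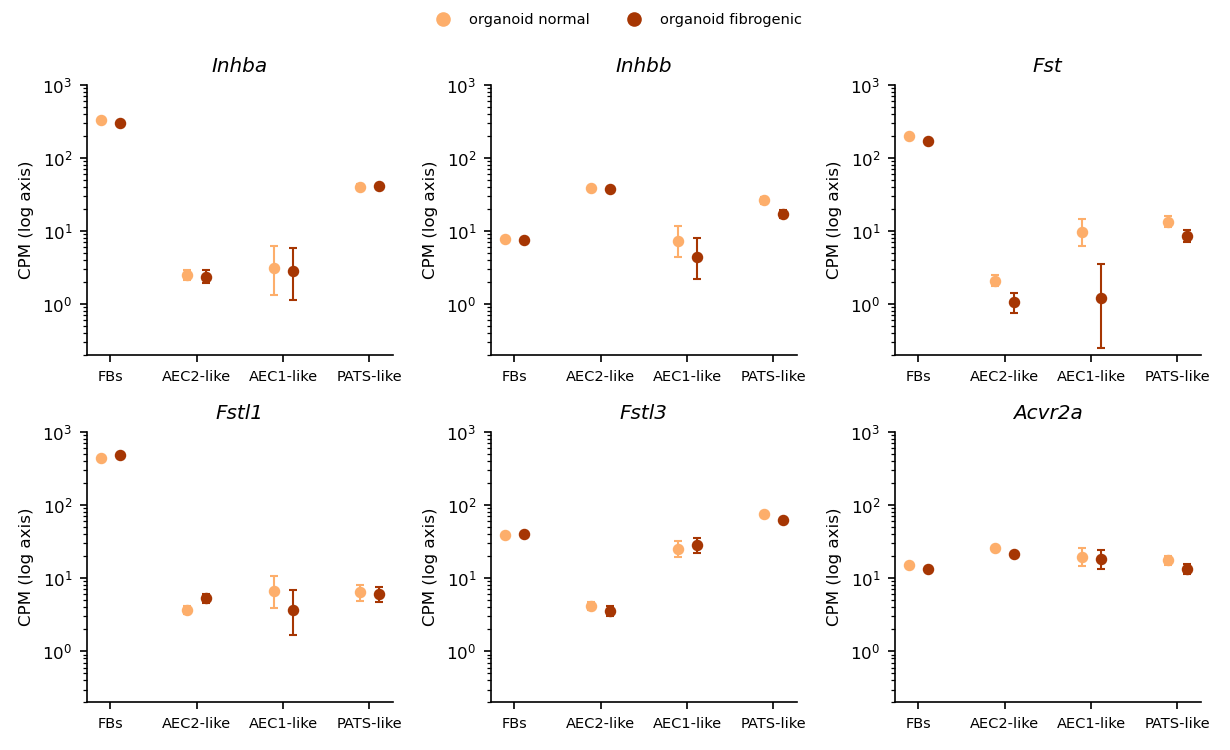
CPM (log axis) of each member in FBs and in AEC2-like, AEC1-like and PATS-like epithelial cells of the normal and fibrogenic organoid libraries, with 95% Poisson intervals. Inhba, Fst and Fstl1 are highest in FBs, Inhbb in AEC2-like cells and Fstl3 in PATS-like cells, in both libraries.

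The genes most like each member were sought over 18 groups of lung FBs (library by subset, at least 20 cells) among 11191 genes, by Pearson correlation of log2(CPM + 1), as a description. These groups share libraries and depth. Fst was most like Basp1 (0.98), Bmp1 (0.95), which encodes a procollagen protease, and Elk3 (0.94), and Fstl1 was most like Bmp1 (0.95), Dbn1 (0.95) and Fst itself (0.92). Inhba was most like Prkar2b (0.91), Inf2 (0.90) and Tnfrsf11b (0.90), which encodes osteoprotegerin. For Inhbb these genes were Chl1 (0.93), Plxnb2 (0.88) and Micall2 (0.88), and for Fstl3 B9d2 (0.87), Tgfb1i1 (0.85) and Uqcrh (0.85). For Acvr2a they were Zfp280d, Exoc2 and Rreb1 (0.98 each). Acvr2a stood at 19.4 and 19.0 CPM in single-dose FBs and at 75.6 and 82.1 CPM in repetitive FBs, and the part of this difference in its correlations was not tested.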

How the data were processed

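Cells were profiled by droplet single-cell RNA-Seq. The authors deposited raw counts: for each gene and barcode, the number of unique molecular identifiers (UMIs). The submitters' processing notes name Cell Ranger 3.0.1, Seurat 3 and mm10. Kit and annotation of the repetitive and organoid libraries are not given in the sources used here. Members, pathway genes and markers were chosen with earlier results of these data known, and gate limits after marker distributions were seen.

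Barcodes with at least 2000 UMIs, at most 25% mitochondrial and 0.5% erythrocyte counts were kept. A marker was positive at 1 or more UMIs and at least 1 UMI per 10000. Lineages needed 3 positive markers (epithelium 2), and subsets at least 3 and 50% of their list, with the largest share. Counts were summed per group and divided by the group's total. CPM intervals are exact Poisson, shares Clopper-Pearson, and ratios exact conditional intervals, at 95%. Log2 ratios used CPM + 1. With 1 library per condition no test was made between conditions, and the single-dose and repetitive experiments, which differ in regimen, were not joined in a blocked fit. Scrublet marked 0 to 18 barcodes per library and did not work, so doublets were left out only where a barcode held markers of several lineages. The ratio, interval, fold-limit and thinning rules were tested on simulated counts. The gates, clusters and sequence searches were not. All 6 members were named, along with pathway genes that passed 2-fold in both lung experiments, receptors and feedback genes, and the 3 genes most like each member. Furin was named after its values were seen. Clusters for the alternative came from scanpy 1.11.5 (Leiden, resolution 1). Other steps used Python 3.11.15, numpy 2.4.6, scipy 1.17.1 and pandas 2.3.3. Gene positions are from GENCODE on GRCm38 and promoters from RefSeq.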

Additional observations from a re-analysis of the deposited data

Results flagged for a closer look

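The log2 ratio of Inhba with bleomycin over PBS was 3.57 in single-dose and 3.36 in repetitive lung FBs, but −0.14 in fibrogenic over normal organoid FBs. Fst showed the same contrast, with 4.69 and 3.72 in the lungs and −0.23 in organoids. The log2 ratio of Acvr2a was 0.12 in repetitive lung FBs and −0.14 in organoid FBs, both small. These values were singled out because the effects had opposite signs with intervals of the ratio on either side of equality. The differences between the experiments were not tested, since each condition had 1 library, and the organoid FBs had been cultured for 2 weeks with AEC2s.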

How the results depend on the processing

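The 2-fold calls of Inhba, Inhbb, Fst and Fstl1 in lung FBs held under all 11 planned settings, with log2 ratios of 2.89 to 3.77, 2.90 to 3.97, 4.38 to 4.76 and 1.67 to 1.83 after the single dose and 2.61 to 3.6, 2.84 to 3.59, 3.47 to 3.80 and 1.07 to 1.21 after repetitive exposure. In organoid FBs no member passed 2-fold, and the log2 ratio of Inhba ran from −0.35 to 0.10, the last over all barcodes. With cells weighted equally, 1 member (Fstl1, log2 1.20) passed 2-fold in organoid epithelium. With clusters in place of gates, 2 members (Inhba and Fst) passed 2-fold in MyoFB-like over LipoFB-like cells of the repetitive bleomycin library. The cause was not tested. An alternative without the 1% of FBs highest in a gene was chosen after seeing the data. No paired analysis was possible because each condition had 1 library, and a fit blocked by experiment was not run. The values of Inhbb in PBS FBs and of Inhba in single-dose PBS subsets rest on few UMIs, and the part of depth in this was not tested.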
